A study of Mus musculus with 28 samples.

Results

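The genes described here are 9 mouse genes of the interferon response and of viral RNA sensing: Isg15, Ifit1, Ifit3, Oasl2, Irf7, Ifih1, Usp18, Bst2 and Rsad2. They were picked by symbol, and each of the 9 was found in all 3 deposited expression tables, which list 56691, 47243 and 57010 genes. The question put to them is whether loss of Alkbh5, which encodes an eraser of the RNA methylation m6A, goes with an interferon response in hair follicle stem cells. The series compared mice with a conditional knockout of Alkbh5 (genotype label Alkbh5 cKO) with wild-type mice (WT), all at postnatal day 69, in skin cells isolated on a flow cytometer. Of its 28 samples, the 12 RNA-seq libraries were used, and the 16 m6A libraries were not analysed here.

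Each of 3 datasets held 2 cKO mice and 2 WT mice. Bulge stem cells, the slowly dividing reserve of the follicle, were profiled with SHERRY2 from 200 ng of RNA, a protocol that tags RNA and cDNA hybrids with a transposase. Hair germ stem cells, which lie below the bulge and divide first when hair growth starts, were profiled from 40 ng of RNA with SHERRY2 and, in other mice, with SMART-seq, which amplifies full-length cDNA. The Cre driver, the deleted exon, the sorting markers and any treatment were not given in the sources used here. The p-values below measure the spread between these few mice.

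None of the 9 genes passed an adjusted p of 0.05 between cKO and WT in any dataset. Of the 7 that passed the filter on low counts in the bulge, 0 were called (3.04% of all genes tested were, edgeR), and 6 had a lower mean level in cKO. Of the 9 in hair germ SHERRY2, 0 passed (0.0077% of all genes did, limma), and of the 7 tested in hair germ SMART-seq, 0 passed (0% of all genes did, edgeR). Messenger RNA of the interferons themselves was at 0 reads for 16 of 20 interferon genes in the bulge and for 18 of 20 in SMART-seq. In hair germ SHERRY2 all 20 had reads, at low counts beside a background of reads described below. The genes also varied together between single mice: in SMART-seq, 5 of the 7 tested were higher in both mice numbered 1 than in both mice numbered 2, where 22.8% of all genes were.

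Cells detect double-stranded RNA in the cytoplasm with MDA5, the product of Ifih1, and with RIG-I, and these sensors switch on type I interferon through the adaptor MAVS. Interferon then acts through its receptor, the kinases JAK1 and TYK2 and transcription factors, STAT2 and IRF9 among them, that bind the interferon-stimulated response element (ISRE) in the promoters of its target genes. The products of these target genes sense more RNA (Ifih1), amplify the signal (Irf7), block viruses (Ifit1, Ifit3, Oasl2, Bst2, Rsad2), modify proteins (Isg15) or end the response (Usp18). In keratinocytes these genes are kept at a low steady level and rise in wounds, infection and inflammatory skin disease.

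The promoters show what the genes share in sequence. Promoter sequences of 250 bases before to 50 bases after the start, from RefSeq on build GRCm38.p6, were at hand for 8 of the 9 genes, all but Usp18. The ISRE core, written GAAANNGAAA and searched on both strands with overlapping matches counted apart, was found in 6 of these 8 promoters, against 3.44% of 32851 promoters of that table. Isg15 held 3 overlapping matches, Bst2 held 2 overlapping ones, Ifit1 and Ifit3 held 2 separate ones each, and Rsad2 and Ifih1 held 1 each. The Oasl2 and Irf7 windows held none, which says only that these letters are not in this window. The interferon gamma element, written TTCNNNGAA, was found in 1 of the 8 promoters (Bst2), against 8.3% of all promoters. The windows from 170 to 51 bases before the start are shown for the 5 genes with a match inside them, 5′ to 3′ on the strand of the gene, with the matches in capitals; they lie at chr4:156200869-156200988 (Isg15, reverse strand), chr8:71537523-71537642 (Bst2, reverse strand), chr19:34640719-34640838 (Ifit1, forward strand), chr19:34583359-34583478 (Ifit3, forward strand) and chr12:26456503-26456622 (Rsad2, reverse strand).
Isg15: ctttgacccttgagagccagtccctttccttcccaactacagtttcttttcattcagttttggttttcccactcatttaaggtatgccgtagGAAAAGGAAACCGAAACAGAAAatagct
Bst2: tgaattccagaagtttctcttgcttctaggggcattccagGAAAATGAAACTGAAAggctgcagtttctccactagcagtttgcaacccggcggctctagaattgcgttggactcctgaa
Ifit1: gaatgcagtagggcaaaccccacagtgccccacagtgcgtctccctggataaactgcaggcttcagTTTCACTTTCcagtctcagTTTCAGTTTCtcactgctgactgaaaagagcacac
Ifit3: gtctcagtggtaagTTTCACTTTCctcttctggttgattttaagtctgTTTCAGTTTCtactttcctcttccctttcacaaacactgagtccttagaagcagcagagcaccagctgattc
Rsad2: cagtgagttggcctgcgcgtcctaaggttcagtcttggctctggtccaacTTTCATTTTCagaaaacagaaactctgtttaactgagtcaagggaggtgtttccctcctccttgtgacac

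The libraries set how far these genes can be read. Bulge libraries held 14676168 to 21187283 reads in genes and SMART-seq libraries 9001396 to 14416601, whereas hair germ SHERRY2 libraries held 1526070 and 2317407 (cKO) and 1513001 and 488648 (WT). Alkbh5 had 68 and 50 reads in cKO bulge, against 2095 and 1351 in WT bulge (log2 fold change -4.97, adjusted p = 0.000492, edgeR). It had 27 and 16 reads in cKO and 95 and 30 in WT libraries of hair germ SHERRY2 (log2 fold change -1.98, adjusted p = 0.724, limma). On whole reads recovered from the normalized counts, its log2 fold change was -2.31 by edgeR (adjusted p = 0.00993). By DESeq2 on these reads Alkbh5 had -2.1 (adjusted p = 0.9997). In SMART-seq it stood at 83.5 and 105.8 CPM in the libraries labelled cKO and at 136.2 and 94.2 CPM in WT, so that the groups overlapped (log2 fold change -0.28, adjusted p = 1, edgeR) and these labels are not borne out by the targeted gene. By Y-linked genes such as Ddx3y, WT mouse 2 was the male of the bulge, cKO library 1 the male of hair germ SHERRY2, and the mice numbered 2 the males of SMART-seq. Hair germ SHERRY2 libraries also carried reads on most genes of smell and vomeronasal receptors (414 to 471 of 538 with a known length), a background against which low genes are read below. Over all genes, edgeR called 476 of 15672 tested in the bulge, limma 3 of 38953 in hair germ SHERRY2 and edgeR 0 of 17547 in SMART-seq (179 at an unadjusted p under 0.05; DESeq2 also called 0).

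The 9 genes differed widely in level. Per length, in the FPKM of the authors (reads per kilobase of exon, scaled to the reads of the library) averaged over the 4 bulge libraries, Usp18 was highest at 7.655, ranging from 5.5 to 10.79 between libraries. Bst2 followed at 5.518 FPKM (2.30 to 8.33), Ifih1 at 3.825 (3.43 to 4.31), Isg15 at 2.105 (0.57 to 4.36) and Irf7 at 2.018 (1.10 to 2.87). Oasl2 had 0.705 FPKM (0.37 to 1.09), Ifit1 0.378 (0.05 to 0.95), Rsad2 0.045 (0.01 to 0.12), and Ifit3 had no read. Neighbours in this order overlapped in their ranges, except Irf7 and Oasl2, whose ranges lay side by side without overlap, and Ifit3. For SMART-seq, in reads per kilobase scaled in the same way with the exon lengths of the bulge table, Ifih1 was highest with a median of 5.32 (3.95 to 5.99), and Usp18 had a median of 2.14 (1.55 to 3.95). The sensor and the protease that ends interferon signalling were thus among the best covered genes of the set in both cell types, and the antiviral effectors Ifit3 and Rsad2 had at most 8 reads in any library of these datasets.

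**Figure D1:**
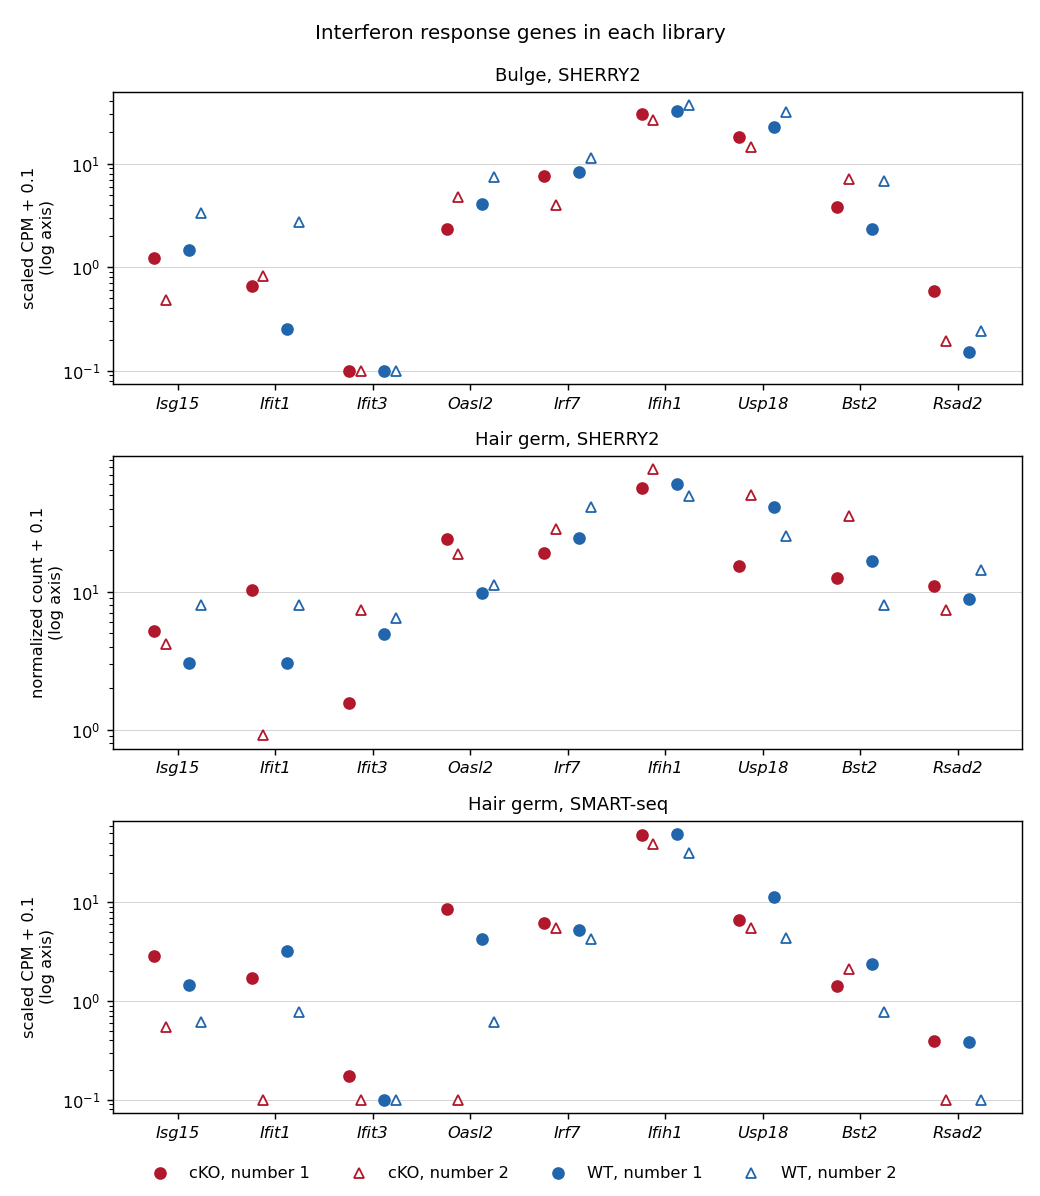
Level of each of the 9 genes in each library, on a log axis with 0.1 added: CPM scaled by TMM for the bulge and SMART-seq, and the deposited normalized count for hair germ SHERRY2. Red marks cKO and blue marks WT, filled circles number 1 and open triangles number 2; Ifit3 sits on the floor in all 4 bulge libraries, and in SMART-seq the circles of Oasl2, Ifit1 and Isg15 lie above the triangles.

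Ifih1 encodes the RNA sensor MDA5 (ENSMUSG00000026896; chromosome 2, 62426142 to 62476599, reverse strand, in the bulge table, which names no build). In the bulge it had 30.0 and 26.4 scaled CPM in cKO mice, against 32.5 and 36.8 in WT mice. Scaled CPM are counts relative to the reads in genes after TMM, which sets the bulk of genes level between libraries. Both cKO values lay below both WT values, by little: the log2 fold change was -0.30 (SE 0.17, 95% interval -0.70 to 0.11, adjusted p = 0.416, edgeR). By SHERRY2 in the hair germ it had 56.5 and 76.8 normalized counts in cKO libraries and 60.7 and 49.0 in WT libraries. In SMART-seq it had 48.1 and 39.4 scaled CPM in the libraries labelled cKO and 49.3 and 31.9 in WT. The groups overlapped in both hair germ datasets, with log2 fold changes of 0.27 (95% interval -1.06 to 1.59, adjusted p = 0.983, limma) and 0.11 (-0.62 to 0.83, adjusted p = 1, edgeR). The SMART-seq interval ends below a rise of 1 on the log2 scale. It compares libraries whose labels are not borne out by Alkbh5, so it sets no limit on an effect of Alkbh5 loss.

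Irf7 encodes the transcription factor that amplifies type I interferon (ENSMUSG00000025498; chromosome 7, 140842619 to 140846394, reverse strand). Its bulge levels were 7.49 and 3.90 scaled CPM in cKO mice, against 8.18 and 11.3 in WT mice. Every cKO value was below every WT value, and the cKO mice differed from each other more than cKO mouse 1 differed from WT mouse 1. The log2 fold change was -0.78 (SE 0.39, 95% interval -1.69 to 0.13, adjusted p = 0.34, edgeR). Without cKO mouse 1 it was -1.29 with an adjusted p of 0.0333 in edgeR, in a fit that takes the remaining cKO mouse to vary like the WT mice and that called 9.53% of all genes. Without cKO mouse 2 it was -0.38 (adjusted p = 0.746), and without WT mouse 2 it was -0.54 (adjusted p = 0.764, both edgeR). In SMART-seq the order was the other way: 6.14 and 5.37 scaled CPM in the libraries labelled cKO and 5.15 and 4.19 in WT, without overlap (log2 fold change 0.30, 95% interval -0.68 to 1.29, adjusted p = 1, edgeR). Hair germ SHERRY2 had 19.1 and 28.6 normalized counts in cKO libraries and 24.5 and 41.1 in WT libraries, which overlap. The log2 fold change there was -0.43 (95% interval -1.61 to 0.75, adjusted p = 0.976, limma). Irf7 overlaps Phrf1 on the opposite strand at its end, and whether strand was used in counting was not given in the sources used here.

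Isg15 encodes a small ubiquitin-like protein that is attached to other proteins during the response (ENSMUSG00000035692; chromosome 4, 156283912 to 156285253, reverse strand). It was a low gene in the bulge, with 18 and 8 reads (1.11 and 0.381 scaled CPM) in cKO mice, against 27 and 45 reads (1.38 and 3.20 scaled CPM) in WT mice. All cKO values were below all WT values, with WT mouse 2 far above the other 3 mice. The log2 fold change was -1.62, the most negative of the tested members, with a wide error (SE 0.77, 95% interval -3.41 to 0.17, adjusted p = 0.313, edgeR). SMART-seq gave 38 and 4 reads in the libraries labelled cKO and 19 and 6 in WT, so that the mice of a genotype differed more than the genotypes did (log2 fold change 0.80, 95% interval -1.85 to 3.44, adjusted p = 1, edgeR). Hair germ SHERRY2 gave 7 and 5 reads in cKO libraries and 3 and 5 in WT libraries (log2 fold change -0.08, 95% interval -1.36 to 1.19, adjusted p = 0.992, limma).

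Usp18 encodes the protease that takes ISG15 off proteins and blocks the interferon receptor, a brake on the pathway (ENSMUSG00000030107; chromosome 6, 121222865 to 121247876, forward strand). In the bulge it had 18.1 and 14.5 scaled CPM in cKO mice, against 22.6 and 31.4 in WT mice, without overlap. With 292 and 304 reads in cKO and 442 in each WT mouse, it had the lowest p of the 9 genes in any dataset. The log2 fold change was -0.73 (SE 0.23, 95% interval -1.28 to -0.19, unadjusted p = 0.0149, adjusted p = 0.145, edgeR), a difference that did not pass over all genes. In edgeR it was -0.87 without cKO mouse 1, -0.59 without cKO mouse 2, -0.96 without WT mouse 1 and -0.49 without WT mouse 2. Each of these fits leaves 1 mouse in a genotype. Without WT mouse 2 the interval spanned 0 (-1.12 to 0.15). In SMART-seq the libraries labelled cKO had 6.51 and 5.37 scaled CPM and WT had 11.4 and 4.27. The cKO libraries of hair germ SHERRY2 had 15.4 and 49.8 normalized counts and WT 41.1 and 25.3. In both hair germ datasets one genotype enclosed the other, with log2 fold changes of -0.40 (95% interval -1.79 to 0.99, SMART-seq, adjusted p = 1, edgeR) and -0.21 (-1.42 to 1.01, SHERRY2, adjusted p = 0.983, limma).

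Oasl2 encodes a member of the oligoadenylate synthase family that responds to double-stranded RNA (ENSMUSG00000029561; chromosome 5, 115034997 to 115050295, forward strand). It was the gene with the widest spread between mice in SMART-seq: 115 and 0 reads in the libraries labelled cKO, against 58 and 6 in WT. A level of 8.41 scaled CPM in 1 mouse thus stood beside none in a mouse of the same label (log2 fold change 0.86, 95% interval -3.60 to 5.32, adjusted p = 1, edgeR). The cKO libraries of hair germ SHERRY2, with 24.2 and 18.8 normalized counts, were both above the WT libraries, with 9.79 and 11.1. This was the one gene of the 9 higher in cKO without overlap there, where 16.4% of all genes tested were (log2 fold change 0.97, SE 0.57, 95% interval -0.17 to 2.11, adjusted p = 0.97, limma). Scaled to the library total, in reads per kilobase, the groups overlapped: 3.39 and 1.56 in cKO libraries, against 1.04 and 2.25 in WT libraries. The bulge had 2.23 and 4.71 scaled CPM in cKO mice and 3.99 and 7.25 in WT mice, which overlap (log2 fold change -0.68, 95% interval -1.84 to 0.48, adjusted p = 0.524, edgeR).

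Ifit1 and Ifit3 encode proteins that bind foreign RNA ends and are among the strongest interferon targets known. Ifit1 (ENSMUSG00000034459; chromosome 19, 34618271 to 34627409, forward strand) had 9 and 15 reads in cKO bulge, against 3 and 37 in WT bulge. The WT mice lay on both sides of the cKO mice, and the log2 fold change of -1.08 (95% interval -3.68 to 1.51, adjusted p = 0.663, edgeR) changed to 2.00 when WT mouse 2 was left out. In SMART-seq Ifit1 had 22 and 0 reads in the libraries labelled cKO and 44 and 8 in WT (log2 fold change -1.18, 95% interval -4.90 to 2.55, adjusted p = 1, edgeR). Hair germ SHERRY2 libraries gave 14 and 1 reads in cKO and 3 and 5 in WT (log2 fold change -0.39, adjusted p = 0.983, limma). Ifit3 (ENSMUSG00000074896; chromosome 19, 34560931 to 34566131, forward strand) had 0 reads in all 4 bulge libraries, where the limit that a count of 0 allows is 0.142 to 0.204 CPM. By SMART-seq it had 1 read in a library labelled cKO and 0 in the other 3 libraries. Its near-identical neighbour Ifit3b had 1 read in the bulge in all and 2 in SMART-seq. How reads that match both copies were counted was not given in the sources used here. Reads dropped from both copies would therefore not show in these counts. Ifit3 in hair germ SHERRY2 had 2 and 9 reads in cKO libraries and 5 and 4 in WT libraries (log2 fold change -0.53, 95% interval -1.84 to 0.77, adjusted p = 0.97, limma), and Ifit3b had 3 and 3 in cKO and 9 and 4 in WT, so the split between the copies is uncertain there.

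Bst2 encodes tetherin, which holds budding viruses at the cell surface and is also known from plasmacytoid dendritic cells (ENSMUSG00000046718; chromosome 8, 71986899 to 71990100, reverse strand). Its bulge levels were 3.71 and 7.09 scaled CPM in cKO mice, against 2.25 and 6.69 in WT mice. In each genotype the mouse numbered 2 was the high one, and the log2 fold change was 0.29 (95% interval -1.03 to 1.62, adjusted p = 0.835, edgeR), the only positive one of the tested members in the bulge. By SHERRY2 in the hair germ it had 12.5 and 35.1 normalized counts in cKO libraries and 16.6 and 7.91 in WT libraries (log2 fold change 0.82, 95% interval -0.36 to 1.99, adjusted p = 0.97, limma). In SMART-seq it had 18 reads in each library labelled cKO and 32 and 8 in WT (log2 fold change 0.14, 95% interval -1.87 to 2.15, adjusted p = 1, edgeR). Rsad2 encodes viperin, an enzyme that makes a nucleotide which stops viral polymerases (ENSMUSG00000020641; chromosome 12, 26492745 to 26506451, reverse strand). It had 8 and 2 reads in cKO bulge and 1 and 2 in WT bulge and did not pass the filter on low counts (ratio of depth-adjusted reads 3.01, with a counting interval of 0.776 to 17.0; edgeR without the filter, log2 fold change 1.56, adjusted p = 0.847). In SMART-seq it had 4 and 0 reads in the libraries labelled cKO and 4 and 0 in WT (ratio 1.14, counting interval 0.211 to 6.09). Hair germ SHERRY2 libraries gave 11 and 7.35 normalized counts in cKO libraries and 8.81 and 14.2 in WT libraries (log2 fold change -0.29, 95% interval -1.45 to 0.87, adjusted p = 0.983, limma).

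**Figure D2:**
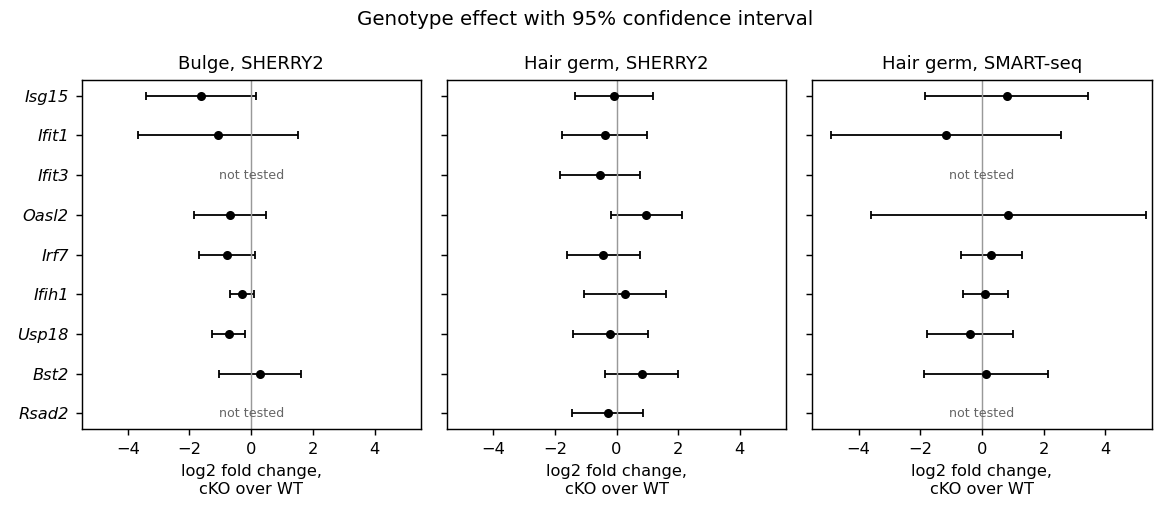
Log2 fold change of cKO over WT with its 95% confidence interval for each gene and dataset (edgeR for the bulge and SMART-seq, limma for hair germ SHERRY2, 2 mice per genotype). Every interval spans 0 apart from that of Usp18 in the bulge, and "not tested" marks genes that did not pass the filter on low counts.

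Of the 7 members tested in the bulge, 6 had a negative log2 fold change, as had 51.1% of all genes, and their median was -0.73, beside -0.01 for all genes tested. Markers of immune cells were lower in the same cKO libraries, with values given further on. None was called, where 3.04% of all genes were, and 1 (Usp18) had an unadjusted p under 0.05, where 18.9% of all genes did. DESeq2 and edgeR without a filter on low counts also called none of the members. In 4 of the 7 (Ifih1, Irf7, Isg15 and Usp18) the cKO mice were below the WT mice without overlap, where 26.2% of all genes were. That count rests on the scaling: with CPM on the library total alone, which moves all cKO genes up by 0.17 on the log2 scale relative to TMM, 2 of the 7 (Isg15 and Usp18) were lower without overlap, where 15.5% of all genes were, and the median was -0.56 beside 0.16 for all genes. Without WT mouse 2, the median of the members was -0.22 and 5 of the 7 were negative.

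Across hair germ SHERRY2, 6 of the 9 fold changes were negative and the median was -0.21, beside 0.06 for all genes tested by limma. The median turned sign with single libraries: it was 0.35 without cKO library 1, 0.05 without cKO library 2, 0.12 without WT library 2 and -0.61 without WT library 1. None was called, where 0.0077% of all genes were, and none had an unadjusted p under 0.05, where 4.62% did. The authors' deposited table, in the layout of DESeq2, gives an adjusted p of 0.9997 for each of the 9 genes. edgeR on whole reads recovered from that table called none of the 7 members it tested, where 0.377% of all genes were called. Per length, Isg15, Irf7, Ifih1, Usp18 and Bst2 lay above the 90th percentile of the receptor genes in 4 of 4 libraries, whereas Oasl2 did in 2, Ifit1 and Ifit3 in 1 and Rsad2 in 0. The values of those last 4 genes, the Oasl2 difference included, thus lay in a range that receptor genes also reach in these libraries. Isg15 passed the percentile with 7 and 5 reads in cKO libraries and 3 and 5 in WT libraries. Receptor genes also reach such counts, with 90th percentiles of 20 and 13 reads (cKO) and 13 and 11 (WT).

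In SMART-seq, 5 of the 7 fold changes tested were positive with a median of 0.14, beside -0.02 for all genes. Without cKO mouse 1 the median was -0.53 with 5 of 7 negative, without WT mouse 2 it was -0.16 with 4 negative, and without WT mouse 1 it was 0.47 with 0 negative. None was called, where 0% of all genes were, and none had an unadjusted p under 0.05, where 1.02% did. Irf7 was the one gene without overlap between the labels, higher in the libraries labelled cKO, where 11.8% of all genes were.

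Whether the genotype effect on a member differed between the bulge dataset and each hair germ dataset was tested in joint edgeR fits. Both hair germ datasets also differed from the bulge in RNA amount. SMART-seq differed in protocol as well, and its labels are not borne out by Alkbh5. Cell type cannot be told apart from these. For none of the 7 members tested did it differ between the bulge and SMART-seq, where 0.0413% of 19371 genes did. As the bulge minus SMART-seq on the log2 scale, the difference was -2.42 for Isg15 (SE 1.42, adjusted p = 0.779), -1.54 for Oasl2 (SE 2.03, adjusted p = 0.918) and -1.08 for Irf7 (SE 0.59, adjusted p = 0.772). Between the bulge and hair germ SHERRY2 none was called either, where 0.119% of 26141 genes were, and the difference for Oasl2 was -1.39 (SE 0.90, adjusted p = 0.792). These values leave room for a difference of either sign.

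Mice of 1 genotype differed as well. When each gene was centred on the mean of its 4 libraries, the mean of the 9 genes in the bulge was -0.08 and -0.26 in cKO mice and -0.30 and 0.64 in WT mice on the log2 CPM scale. WT mouse 2 had the highest level of 6 of the 7 tested genes, where this library was the highest for 29.6% of all genes. Of 30 other interferon-stimulated genes tested, it was the highest in 18. In SMART-seq the mean of the 9 was 0.70 and -0.81 in the libraries labelled cKO, and 0.67 and -0.56 in WT. There, Ifih1, Ifit1, Isg15, Oasl2 and Usp18, 5 of the 7 tested, were higher in both mice numbered 1 (female) than in both mice numbered 2 (male), where 22.8% of all genes were. The same held for 18 of 27 other interferon-stimulated genes and 10 of 15 sensors and adaptors tested. In hair germ SHERRY2 the mean stayed between -0.11 and 0.10 in the 4 libraries. The high mouse of the bulge was male, and the high mice of SMART-seq were female. The part of sex, handling or litter in these differences was not tested.

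**Figure D3:**
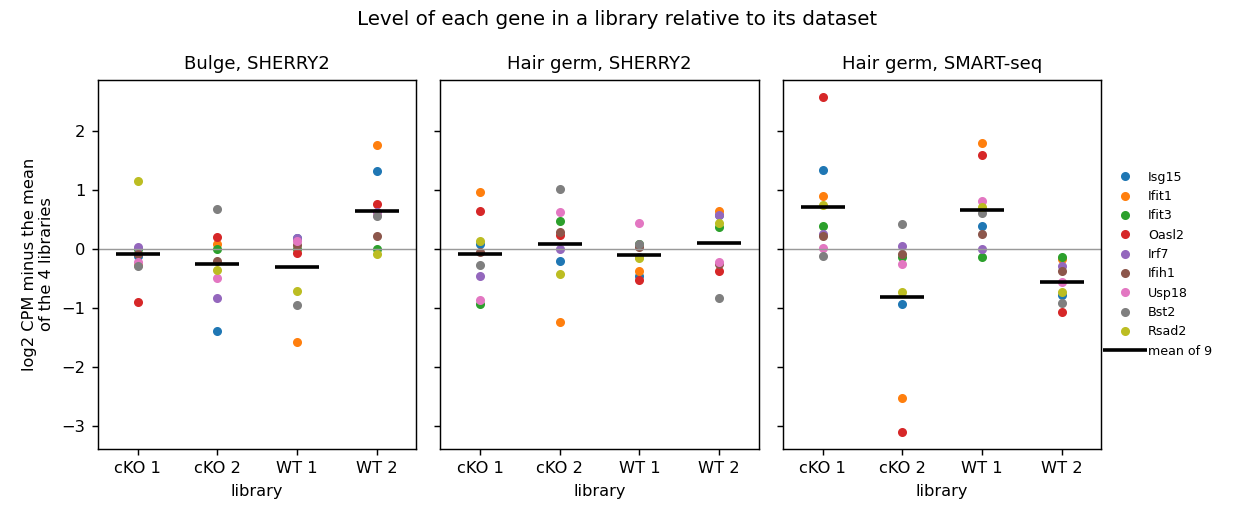
Level of each gene in each library minus its mean over the 4 libraries of the dataset (log2 CPM), with the mean of the 9 genes as a black bar. In the bulge the bar of WT mouse 2 stands at 0.64 above the other 3, and in SMART-seq the bars alternate with the mouse number (0.70 and -0.81 in the libraries labelled cKO, 0.67 and -0.56 in WT).

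Genes outside the interferon lists with the profile most like the mean of the 9 over the 12 libraries, centred within each dataset, were 1700028E10Rik (Pearson r 0.93), Cyp2u1 (0.92), Il23a (0.92), Apobec3 (0.92), Irx4 (0.91) and Slc27a6 (0.89), of 12159 genes compared. Apobec3 encodes a cytidine deaminase that acts on retroviruses, and Il23a a subunit of interleukin 23. The 12 points fall in 3 groups of 4 that share their dataset and protocol, and r is given as a description.

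Around the 9 genes, the rest of the pathway was read from lists of its parts. Of 30 other interferon-stimulated genes tested in the bulge, 0 were called by edgeR, where 3.04% of all genes were, and 5 had an unadjusted p under 0.05, where 18.9% did. Their median log2 fold change was -0.20. The lowest p in that list was that of Eif2ak2, which encodes the double-stranded RNA kinase PKR: it had 36.3 and 39.5 scaled CPM in cKO mice, against 22.4 and 25.3 in WT mice (log2 fold change 0.67, SE 0.17, adjusted p = 0.0837, edgeR). Its call depended on the processing, with an adjusted p of 0.0473 without the filter on low counts, 0.0372 without scaling beyond the library total, 0.0421 without cKO mouse 1 and 0.0512 by DESeq2, and of 0.203 to 0.231 when another mouse was left out. Next came Ube2l6, the enzyme that conjugates ISG15, with 6.62 and 7.09 scaled CPM in cKO mice and 11.2 and 14.8 in WT mice (log2 fold change -0.92, SE 0.28, adjusted p = 0.131). Ddx60, a helicase linked to RNA sensing, had 1.49 and 1.43 scaled CPM in cKO mice and 3.02 and 4.20 in WT mice (log2 fold change -1.30, SE 0.49, adjusted p = 0.198). PKR, which stops translation, and the ISG15 enzyme thus had opposite signs, and neither passed in the fit with TMM and the filter.

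Of 17 sensors and adaptors tested in the bulge, 1 passed (1.6% of all genes were called lower in cKO and 3.04% in either direction). This was Myd88, the adaptor of Toll-like receptors, which was lower in cKO. It had 33.9 and 38.6 scaled CPM in cKO mice, against 89.0 and 64.7 in WT mice (log2 fold change -1.09, SE 0.20, adjusted p = 0.0327, edgeR). Without WT mouse 1 its adjusted p was 0.0713 and 0 genes of the list passed. The list had 3 called genes without the filter on low counts (Eif2ak2, Mb21d1 and Myd88), 3 without scaling (Eif2ak2, Ikbke and Myd88) and 4 without cKO mouse 1 (these 3 and Mb21d1). The list as a whole had a median of 0.13, with 11 of 17 fold changes positive. None of the other 16 passed. Among the sensors of nucleic acid, named after their values were seen, Ddx58 (RIG-I) had 22.7 and 24.4 scaled CPM in cKO mice and 14.4 and 25.7 in WT mice (log2 fold change 0.24, adjusted p = 0.708). Mavs had a log2 fold change of 0.13 (adjusted p = 0.751), and Mb21d1, which encodes the DNA sensor cGAS, had 12.1 and 19.97 scaled CPM in cKO mice and 8.84 and 8.46 in WT mice (0.89, adjusted p = 0.159). On the other side of 0 were Dhx58, which encodes the RIG-I relative LGP2, at -0.25 (adjusted p = 0.876), and Tmem173, which encodes the adaptor STING, at -0.91 (adjusted p = 0.67, all edgeR).

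Of 8 enzymes tested that clear or edit the RNA and DNA that sensors would see, 0 were called (3.04% of all genes were) and 3 had an unadjusted p under 0.05 (18.9% of all genes did), with a median of 0.21. Dhx9, an RNA helicase that unwinds double strands, had a log2 fold change of 0.45 (adjusted p = 0.155), Rnaseh2b, a subunit of the nuclease of RNA and DNA hybrids, one of 0.53 (adjusted p = 0.164), and Samhd1, which depletes nucleotides, one of -0.38 (adjusted p = 0.259, all edgeR).

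Of 18 receptors, kinases, factors and feedback inhibitors tested, 1 passed, beside the 3.04% of all genes: Irf1, a transcription factor induced by interferon gamma, was lower. It had 18.2 and 20.8 scaled CPM in cKO mice, against 48.4 and 50 in WT mice (log2 fold change -1.33, SE 0.17, adjusted p = 0.0103, edgeR), and it stayed under 0.05 when any 1 of the 4 mice was left out. Socs3, a feedback inhibitor of cytokine receptors, named after its values were seen, had 295.4 and 103.5 scaled CPM in cKO mice, against 1097 and 673.2 in WT mice (log2 fold change -2.15, SE 0.46, adjusted p = 0.0545, edgeR). It passed with the scaling of DESeq2 in edgeR (0.0452), without the filter, without scaling, with a block for the mouse number (0.00566) and without either cKO mouse, but not by DESeq2 (0.0564) or without either WT mouse (0.106 and 0.069). In the hair germ the log2 fold change of Irf1 was -0.30 by SHERRY2 (adjusted p = 0.983, limma) and -0.54 by SMART-seq (adjusted p = 1, edgeR). Factors of the type I pathway, named after their values were seen, had other values in the bulge: Stat2 0.57 (adjusted p = 0.154) and Irf9 -0.17 (adjusted p = 0.63) as log2 fold changes in edgeR. In neither hair germ dataset was a gene of any of these lists called.

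**Figure D4:**
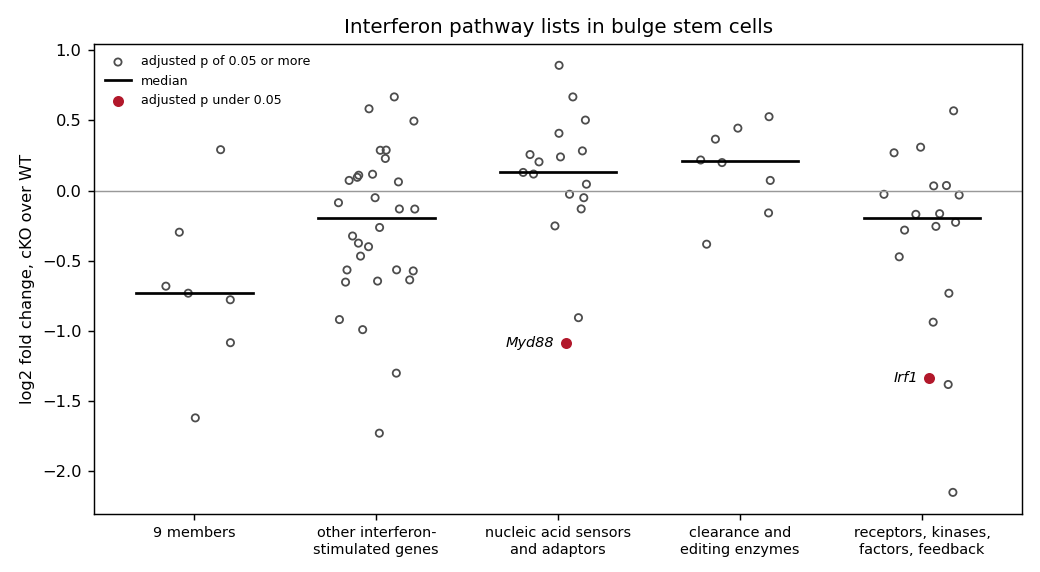
Log2 fold change of cKO over WT in bulge stem cells for the genes tested of the 9 members and of 4 lists of the pathway, with the median of each list as a line (edgeR, 2 mice per genotype). Filled red points, Myd88 and Irf1, passed an adjusted p of 0.05; the median of the members (-0.73) is the lowest of the 5.

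The interferons were hardly detected. In the bulge, Ifnb1 and 15 others of the 20 interferon genes listed had 0 reads in all 4 libraries. Ifnk, the keratinocyte interferon, had 0 and 0 reads in cKO bulge and 0 and 7 in WT bulge, the 7 reads being those of WT mouse 2. In SMART-seq it had 11 and 2 reads in the libraries labelled cKO and 6 and 4 in WT. In hair germ SHERRY2 all 20 interferon genes had reads, with 4 and 4 for Ifnb1 in cKO libraries and 2 and 0 in WT libraries, beside medians of 5 and 3 (cKO) and 3 and 2 (WT) reads for the receptor genes.

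Interferon-stimulated genes are also expressed by immune cells, whose markers moved with genotype in the bulge. The 6 leukocyte markers were Ptprc, Laptm5, Coro1a, Cd52, Tyrobp and Fcer1g. Their summed level was 11.02 and 6.80 scaled CPM in cKO mice, against 25.7 and 24.8 in WT mice. Of these, 6 of 6 were lower in cKO without overlap, where 26.2% of all genes tested were. The 6 markers of myeloid and dendritic cells summed to 54.6 and 31.8 scaled CPM in cKO mice and 155.1 and 112.7 in WT mice. Cd74 alone gave 40.9 and 25.8 in cKO mice and 126.0 and 94.4 in WT mice. Of these 6 markers, 4 were lower in cKO without overlap. The 5 markers of T and NK cells summed to 5.51 and 2.47 in cKO mice and 20.7 and 17.6 in WT mice, with 4 lower without overlap. Ccr9 and Siglech, markers of plasmacytoid dendritic cells, summed to 0.928 and 1.19 scaled CPM in cKO mice and 0.767 and 1.42 in WT mice. In these bulk samples fewer cells of a type and less RNA per cell cannot be told apart, and the part of these cells in the lower Isg15, Irf7, Usp18, Irf1 and Myd88 of the bulge was not tested. In SMART-seq the leukocyte sum was 7.10 and 16.2 scaled CPM in the libraries labelled cKO and 7.52 and 9.66 in WT. Hair germ SHERRY2 had a leukocyte sum of 108.5 and 88.2 normalized counts in cKO libraries and 139.9 and 118.6 in WT libraries. There 3 of the 6 markers were lower in cKO without overlap, where 16.4% of all genes tested were. These were Ptprc, Laptm5 and Tyrobp. Laptm5 had 23.46 and 16.33 normalized counts in cKO libraries, against 23.48 and 34.79 in WT libraries. Tyrobp had 6 and 4 reads in cKO libraries and 11 and 4 in WT libraries. The 90th percentiles of the receptor genes were 20 and 13 reads (cKO) and 13 and 11 (WT). The 9 bulge stem cell markers summed to 26530 and 30260 scaled CPM in cKO bulge and to 37000 and 34020 in WT bulge. Krt5, Krt14 and Krt15 gave most of these sums. Cd34 had 366.4 and 136.3 scaled CPM in cKO bulge, against 246.8 and 241.2 in WT bulge. In hair germ SHERRY2 some follicle markers were low, with 15 reads of Sox9 and 12 of Lgr5 in WT library 2.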

How the data were processed

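The 12 RNA-seq libraries were grouped by the genotype in their labels, 2 mice per genotype in each of 3 datasets. The members and lists were chosen with earlier results of these data known. The labels' protocols give TRIzol RNA and SHERRY2 or SMART-seq. The bulge table, as deposited, holds read counts and FPKM per gene; the FPKM of the authors follow from their counts and exonic sizes within 0.492%. The SMART-seq table, as deposited, holds read counts. The hair germ SHERRY2 table, as deposited by the authors, has the layout of a DESeq2 result: a normalized signal per library (read counts divided by a size factor), log2 fold changes, a Wald score, and p-values. Its library columns were assigned to genotypes by name, and its score was not used. The submitters' processing notes name STAR, HISAT2, featureCounts, Subread, DESeq2, FastQC, Trim Galore, fastp (among others) and the builds GRCm38, mm10 and GRCm39, with no role for each; versions and strand setting were not given in the sources used here.

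Bulge and SMART-seq counts of cKO were set against WT with edgeR 4.0.16 (R 4.3.3; quasi-likelihood, TMM, filterByExpr). All tests were two-sided, with Benjamini-Hochberg adjustment at 0.05 over every gene tested. Normalized values went to limma 3.58.1 with a trend, as log2(value + 1) of genes averaging 1 or more, so fold changes of low genes are understated. All of these values (100%) came out as whole reads to within 0.01 when divided by the worth of 1 read, and edgeR and DESeq2 1.42.0 were also run on the recovered reads. Differences between datasets came from joint edgeR models with an interaction of dataset and genotype. The 95% intervals come from the same models, and counting intervals cover counting error only. The models were tested on simulated data with the same spread for every gene and changes only in genes above a set read count. Low members such as Ifit3 and Rsad2 lie outside that setting.

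Named beside the 9 members are, per list, genes past an adjusted p of 0.05 or else the 3 with the lowest p in the bulge, and the 6 genes most like the mean of the members in Pearson r; exceptions are marked. Alternatives were the scaling, the filter, the pseudocount, the tool, a block for the mouse number, and leaving out each library.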

Additional observations from a re-analysis of the deposited data

Results flagged for a closer look

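Irf7 stood apart between genotypes in opposite directions in 2 datasets: below WT in both cKO mice of the bulge (7.49 and 3.90 scaled CPM in cKO, against 8.18 and 11.3 in WT), and above WT in both libraries labelled cKO of SMART-seq (6.14 and 5.37 scaled CPM, against 5.15 and 4.19 in WT). The genotype effect in the bulge minus that in SMART-seq was -1.08 on the log2 scale (SE 0.59), which did not pass in the joint edgeR fit (adjusted p = 0.772). In hair germ SHERRY2 the groups overlapped, with a log2 fold change of -0.43 (adjusted p = 0.976, limma). On the library total alone, without TMM, the bulge groups overlapped (2.1 and 1.1 FPKM in cKO, against 2.0 and 2.87 in WT, in the values of the authors), and the labels of SMART-seq are not borne out by Alkbh5.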

How the results depend on the processing

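None of the 9 genes was called under any alternative run in any dataset, except in the bulge without cKO mouse 1, where 2 of 7 were, beside 1601 of 16795 genes or 9.53% (0 to 2 when a mouse was left out). The number of genes called overall moved more: in the bulge it was 476, against 1549 without a filter on low counts, 1191 by DESeq2, 809 without scaling beyond the library total, and 218 (without WT mouse 2) to 1601 (without cKO mouse 1) when a mouse was left out. In SMART-seq it was 0, against 30 without the filter. In hair germ SHERRY2 it was 3 by limma, against 0 with a pseudocount of 0.1, 0 without the filter, 0 by DESeq2, 63 by edgeR and 35 by edgeR without the filter on recovered reads, and 0 to 105 when a library was left out (edgeR: 1 without cKO library 1, 16 without cKO library 2, 1 without WT library 1 and 113 without WT library 2). With the mouse number as a replicate block it was 506 in the bulge, 5 in hair germ SHERRY2 and 0 in SMART-seq, and no member was called; no label says what the numbers share, though in SMART-seq they go with sex, and the block moved Oasl2 there from 0.86 to 0.0371 (correlation of deviations of the libraries sharing a number -0.071, -0.448 and 0.23 in these datasets, 2 pairs each).

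Log2 fold changes of single members turned sign in few fits other than those that leave out a mouse. In hair germ SHERRY2, edgeR gave -0.0208 for Ifih1, DESeq2 gave 0.0773 for Ifit1, and edgeR without the filter gave 0.17 for Ifit1. Leaving out 1 mouse at a time spanned 0 in the bulge for Ifit1 (-2.04 to 2.00) and Bst2 (-0.31 to 1.26). It did so in hair germ SHERRY2 for Isg15 (-0.67 to 0.50), Ifit1 (-1.70 to 0.93), Ifit3 (-1.41 to 0.35), Usp18 (-1.02 to 0.61) and Rsad2 (-0.61 to 0.0294). In SMART-seq it did so for Isg15 (-1.04 to 1.67), Ifit1 (-7.48 to 0.29), Oasl2 (-7.76 to 3.04), Usp18 (-0.93 to 0.47), Ifih1 (-0.16 to 0.46) and Bst2 (-0.46 to 1.26). Ifih1, Irf7, Isg15, Oasl2 and Usp18 kept a negative value in the bulge in each of these fits. The cause of these changes was not tested. The bulge held 2 mice per genotype, and Isg15, Ifit1, Ifit3 and Rsad2 had 0 to 45 reads per library there. Both limit what can be said of these genes. The fits without scaling and those of edgeR beyond its first on recovered reads were chosen after seeing the data.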
